A study of Mus musculus with 10 samples.

Results

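The proteasome genes described here are the 50 gene symbols, of 32531 in the deposited counts, that begin with Psm, a letter from a to g and a digit. They comprise 19 genes of the core particle (Psma1 to Psma8 and Psmb1 to Psmb11), 20 of the regulatory cap (Psmc1 to Psmc6 and Psmd1 to Psmd14) and 10 others (the activators Psme1 to Psme4 with Psme2b, the regulator Psmf1 and the assembly factors Psmg1 to Psmg4). The last of the 50 is Psmc3ip, a cofactor of DNA recombination that shares only the letters of its symbol with the cap ATPase Psmc3. No row named as a pseudogene met the rule, so 0 rows were left out. The counts come from whole striatum of adult Drd2-TRAP CP101 mice. In this line, Drd2, the gene of the dopamine D2 receptor, drives ribosomal protein L10a joined to EGFP, and the striatal cells that use it are mainly indirect-pathway medium spiny neurons (MSNs), with cholinergic interneurons among them. All libraries, the controls included, come from this transgenic line after short-access intravenous self-administration of saline or cocaine. Tagged polysomes were immunopurified (IP) with antibodies to EGFP, giving 3 saline IP libraries (numbers 1, 2 and 4) and 5 cocaine IP libraries (numbers 1 to 5). Total RNA of the saline group gave 1 input library, and RNA left behind by the beads gave 1 unbound library of the cocaine group. Whether a library pools several mice is not given in the sources used here.

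The proteasome degrades proteins that carry chains of ubiquitin. Its barrel-shaped core is a stack of rings of alpha and beta subunits, and the cutting sites lie inside, on the beta subunits encoded by Psmb5, Psmb6 and Psmb7. The cap, a ring of ATPases (Psmc) with a lid and base of other subunits (Psmd), recognises ubiquitin, unfolds the substrate and feeds it into the core. Interferon-responsive cells can build the core with Psmb8, Psmb9 and Psmb10 in place of the constitutive catalytic subunits, which forms the immunoproteasome. Neurons use the proteasome at synapses, where it limits the amount of receptors and scaffold proteins.

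Reads counted to genes ranged from 22975667 to 31631137 in the IP libraries, with 18408782 for input RNA and 20882691 for unbound RNA. Levels are CPM, a gene's share of a library's gene reads brought to a common total, with library sizes scaled by the trimmed mean of M-values (TMM) over all 10 libraries, and 3 reads equal 0.0948 to 0.131 CPM in an IP library before that scaling. The IP libraries carried the markers of indirect-pathway MSNs: 6 of 6 exceeded the reference of their treatment by 2-fold or more throughout, while 8 of 8 astrocyte and 8 of 8 oligodendrocyte markers fell short of both references by 2-fold or more. Of the direct-pathway markers, 6 of 6 were lower than the input by that margin and 5 of 6 lower than the unbound library. Nothing in the labels ties each library to its own animal, so a p-value here reflects the spread among libraries, which may be technical. Sequencing lanes, per the labels, were 7, 7 and 6 for saline IP 1, 2 and 4, 6, 6, 4, 4 and 4 for cocaine IP 1 to 5, and 1 for both reference libraries.

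Transcripts of the core and the cap were higher in the ribosome-bound RNA of D2 cells than in the RNA of the whole striatum. Of the 45 proteasome genes that reached a mean of 1 CPM over the libraries compared, 41 lay above the input in all 3 saline IP libraries, beside 42.9% of all 12894 genes measured, and 3 lay below it in all 3, beside 33.7%. Of 45 measured against the unbound library, 41 lay above it in all 5 cocaine IP libraries, beside 43.9% of 12655 genes, and 2 lay below it, beside 30.2%. The IP libraries differ from the references both in the cells sampled and in holding ribosome-bound RNA, and the ratios cannot tell these apart. Summed over the 50 genes, their share of gene reads was 0.389% to 0.415% across the 8 IP libraries, against 0.288% for input RNA and 0.248% for unbound RNA, so the IP libraries did not overlap with either reference. The genes not measured in either ratio were Psma8, Psmb8, Psmb9, Psmb11 and Psme2b, which fell under the minimum.

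The shift was modest in size. Per gene it is given as the log2 ratio of CPM plus 1 in an IP library to CPM plus 1 in the reference, without a p, because each reference is a lone library. Over the 45 genes, the median of the mean ratios was 0.66 against the input, where all genes had 0.10, and 0.87 against the unbound library, where all genes had 0.16. With scaling by library size alone the medians of all genes moved from 0.10 to -0.09 and from 0.16 to -0.01, and the proteasome genes kept a distance of 0.54 and 0.71 from them, beside 0.56 and 0.71 with TMM. Only 1 of the 45 genes exceeded the input by 2-fold or more in all 3 saline IP libraries, beside 1.45% of all genes. That gene was Psmc3ip, which is no proteasome subunit, and no gene of the core, the cap or the others passed. The count of 1 became 3 without saline IP 1, and 0 with library size alone or with 5 CPM added. It was also 0 without genes that share over 10% of their sequence windows with another gene. Against the unbound library 13 passed 2-fold in every cocaine IP library, beside 3.73% of all genes, and these were 9 of the 15 core genes measured, 2 of the 20 cap genes (Psmd6 and Psmd8), the assembly factor Psmg4 and Psmc3ip. Psmb10 was the only measured gene below both references by 2-fold or more throughout, as were 11.8% of all genes against the input and 9.85% against the unbound library. With 5 CPM added in place of 1, its mean ratios were -1.09 and -0.90, the latter short of 2-fold. IP and reference libraries ran on different lanes. With reads placed at several sites left out of the base, reads outside annotated genes made up 12.9% to 14.4% of IP reads. They made up 25.5% of input reads and 27.4% of unbound reads on the same base. The part of lane and of this read composition in the ratios was not tested.

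Core genes stood higher than cap genes in every IP library. The median log2 ratio of the core genes was 0.764, 0.997 and 0.818 in saline IP 1, 2 and 4, where that of the cap genes was 0.610, 0.700 and 0.641. Against the unbound library the core medians were 1.26, 1.36, 1.29, 1.40 and 1.14 in cocaine IP 1 to 5, and the cap medians were 0.73, 0.70, 0.69, 0.70 and 0.77. The core thus lay above the cap in each library, by a wider margin against unbound RNA than against input, but the 3 and the 5 ratios each share 1 reference library and are not separate observations of this difference. The median of the mean ratios was 0.90 ± 0.12 (SD of the library medians, n = 3) for the core and 0.63 ± 0.05 for the cap against the input. It was 1.32 ± 0.10 (SD, n = 5) and 0.71 ± 0.04 against the unbound library. All 20 cap genes lay above both references in every IP library. The plot of ratios by gene shows both comparisons library by library.

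**Figure D1:**
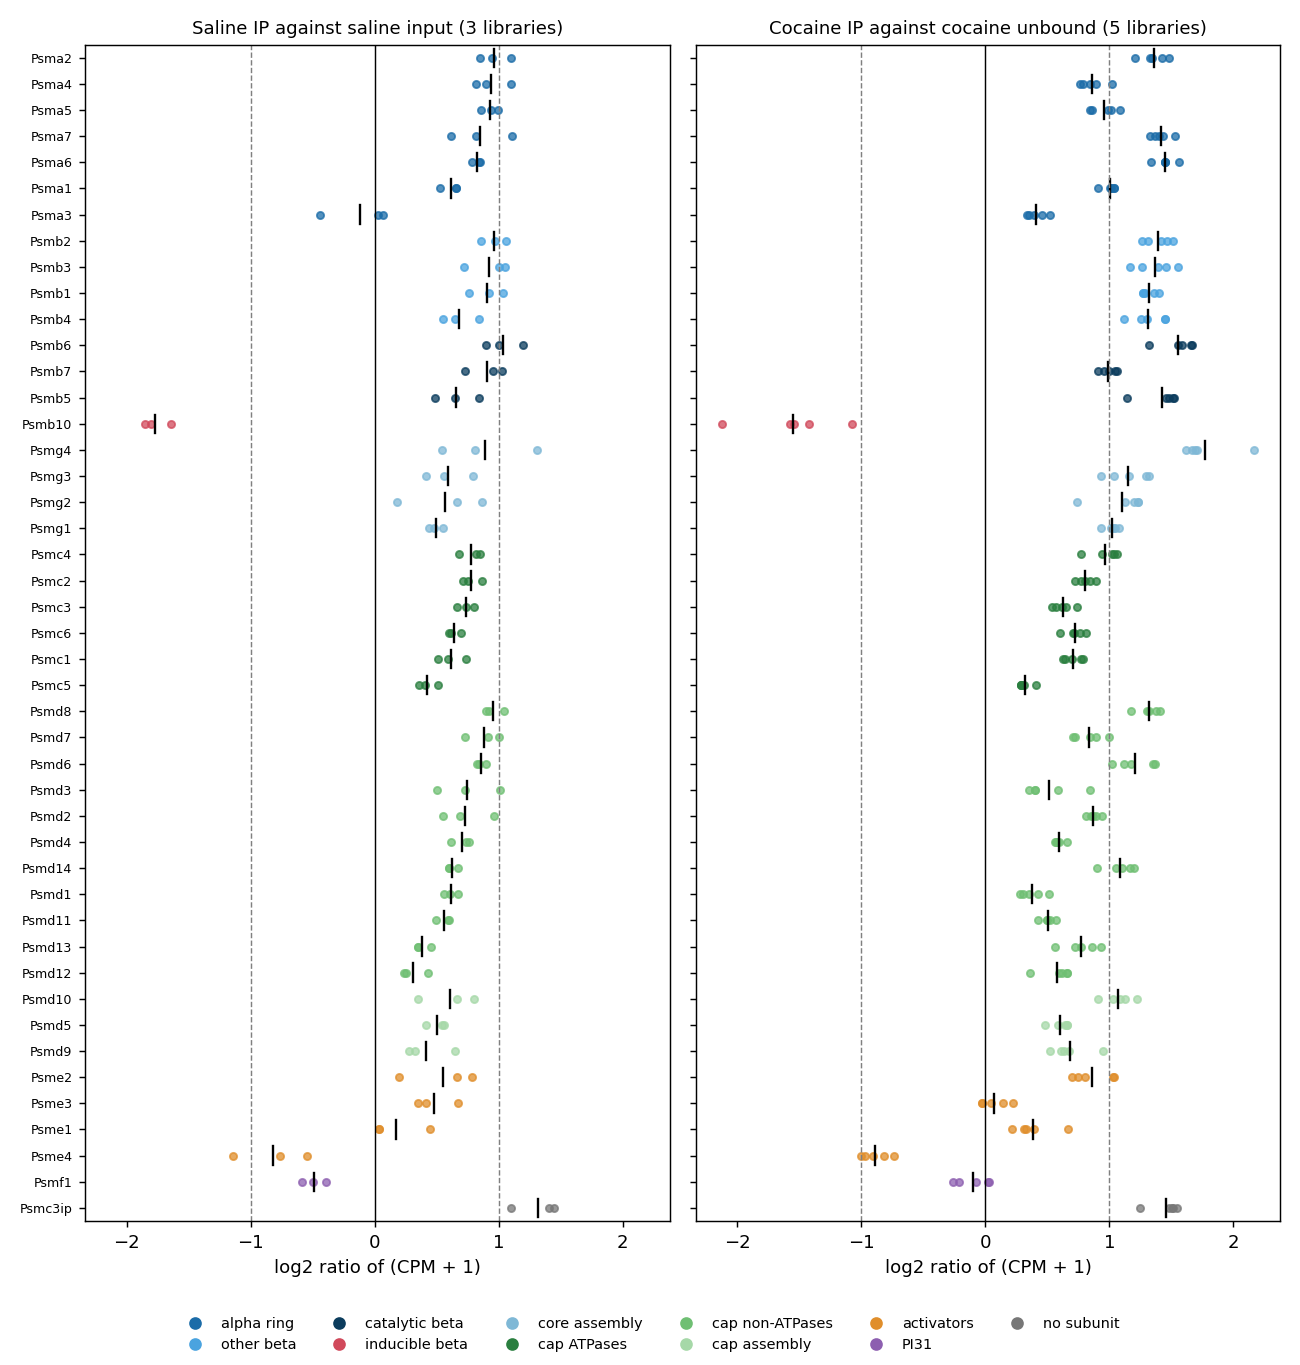
Log2 ratio of CPM plus 1 for the 45 measured proteasome genes, saline IP against input (left, 3 libraries) and cocaine IP against unbound RNA (right, 5 libraries). Points are single IP libraries, bars are means, dashed lines mark 2-fold and colours mark roles; most genes lie right of 0, core genes further than cap genes against unbound RNA, and Psmb10, Psme4 and Psmf1 have means left of 0 in both panels.

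Gene length went with the ratios. The 19 core genes had a median exon length of 1239 bp and the 20 cap genes of 2016.5 bp in the GENCODE annotation. The core median includes Psma8, Psmb8, Psmb9 and Psmb11, which have no ratio. Spearman's rho between exon length and mean log2 ratio was -0.28 over 11488 genes against the input and -0.34 over 11312 genes against the unbound library. Over the 45 proteasome genes it was -0.34 and -0.60, over the 15 core genes -0.32 and -0.59, and over the 20 cap genes -0.30 and -0.42. These correlations run across genes of the same libraries, which are not independent replicates, and the part of length in the distance between core and cap was not tested.

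The constitutive catalytic subunits hold the cutting sites, and all 3 lay above both references in every IP library. Psmb6 (chromosome 11, 70525367 to 70527858), the caspase-like site, stood at 189.8, 234 and 204 CPM in saline IP 1, 2 and 4, 211, 209, 198, 194 and 166 CPM in cocaine IP 1 to 5, 101 CPM in the input and 65.6 CPM in the unbound library. Every IP library exceeded both references, and the ratios were 1.03 ± 0.15 (SD, n = 3) against the input, the highest of the core, and 1.56 ± 0.14 (SD, n = 5) against the unbound library. Psmb7 (chromosome 2, 38588036 to 38644087), the trypsin-like site, stood at 176, 185 and 150.2 CPM in saline IP 1, 2 and 4, 174, 169, 159, 176 and 164 CPM in cocaine IP 1 to 5, 90.3 CPM in the input and 84.02 CPM in the unbound library. The 8 IP libraries again lay above both references, which were close to each other, with ratios of 0.90 ± 0.16 (SD, n = 3) to the input and 0.99 ± 0.06 (SD, n = 5) to the unbound library. Psmb5 (chromosome 14, 54614119 to 54618022), the chymotrypsin-like site, stood at 29.1, 33.3 and 25.9 CPM in saline IP 1, 2 and 4, 34.1, 33.5, 34.8, 35.03 and 26.7 CPM in cocaine IP 1 to 5, 18.2 CPM in the input and 11.6 CPM in the unbound library. All IP libraries were higher than either reference, with ratios of 0.66 ± 0.18 (SD, n = 3) to the input and 1.42 ± 0.16 (SD, n = 5) to the unbound library, and cocaine IP 5 was the lowest cocaine library for Psmb5 and for Psmb6.

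The alpha subunits form the outer rings that gate entry to the core. Psma2 (chromosome 13, 14613240 to 14674236), the alpha gene with the highest ratio to input, stood at 149, 178 and 159 CPM in saline IP 1, 2 and 4, 156, 171, 154, 165 and 142 CPM in cocaine IP 1 to 5, 82.3 CPM in the input and 60.8 CPM in the unbound library. IP and reference libraries did not overlap, at ratios of 0.96 ± 0.13 (SD, n = 3) to the input and 1.36 ± 0.10 (SD, n = 5) to the unbound library. Psma1, Psma4, Psma5, Psma6 and Psma7 had mean ratios of 0.61 to 0.94 against the input and 0.86 to 1.45 against the unbound library, each above the reference in every IP library. Psma3 (chromosome 12, 70974621 to 70996347) was the exception, at 4.02, 5.94 and 6.11 CPM in saline IP 1, 2 and 4, 4.90, 5.36, 4.82, 5.65 and 5.08 CPM in cocaine IP 1 to 5, 5.80 CPM in the input and 3.62 CPM in the unbound library. Its saline IP libraries lay on both sides of the input, with a ratio of -0.12 ± 0.28 (SD, n = 3), whereas all 5 cocaine IP libraries lay above the unbound library, with a ratio of 0.41 ± 0.08 (SD, n = 5).

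The remaining constitutive beta subunits, which complete the inner rings, also lay above both references. Psmb2 (chromosome 4, 126677630 to 126709714) had the highest ratio to input among them, at 143, 165 and 155 CPM in saline IP 1, 2 and 4, 135, 155, 150.1, 161 and 139.9 CPM in cocaine IP 1 to 5, 78.6 CPM in the input and 55.7 CPM in the unbound library. Psmb4 (chromosome 3, 94884093 to 94886961) had the lowest, at 192, 234 and 206 CPM in saline IP 1, 2 and 4, 199.9, 206, 228, 229 and 181 CPM in cocaine IP 1 to 5, 131 CPM in the input and 83.2 CPM in the unbound library. No IP library of either gene overlapped with a reference, and the ratios to input were 0.96 ± 0.10 (SD, n = 3) for Psmb2 and 0.68 ± 0.15 (SD, n = 3) for Psmb4. Against the unbound library the 4 genes Psmb1 to Psmb4 lay between 1.31 and 1.39, and each passed 2-fold in every cocaine IP library.

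Promoters of proteasome genes are known to hold antioxidant response elements, through which Nfe2l1 raises proteasome transcription when proteasome capacity falls short. The letters TGACNNNGC, the core of that element, were looked for on both strands in the 250 bases before the RefSeq start of 42 proteasome genes with a RefSeq promoter entry (build GRCm38.p6). They were present in 5 of the 42, or 11.9%, and in 11.5% of the promoters of 27025 genes, so the shares were near each other. These windows are shown because they include both Psmb5 and Psmb6. Capitals mark the matched letters, and each is read along the gene's own strand. In Psmc6 and Psmd12 the match lies on the opposite strand.
Psmb5, chr14:54618024-54618052, minus strand: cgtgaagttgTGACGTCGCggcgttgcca
Psmb6, chr11:70525338-70525366, plus strand: ctaaagagagTGACGGAGCgctttacgac
Psmc6, chr14:45329587-45329615, plus strand: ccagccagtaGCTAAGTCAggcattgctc
Psmd12, chr11:107479278-107479299, plus strand: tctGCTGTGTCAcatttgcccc
Psmd9, chr5:123228149-123228177, plus strand: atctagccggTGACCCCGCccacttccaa
Relative to the RefSeq start, the match began at position -47 in Psmb5, -9 in Psmb6, -227 in Psmc6, -247 in Psmd12 and -31 in Psmd9. The Psmd9 window lies inside the GENCODE gene model, which runs from 123169413 to 123250131 and starts upstream of the RefSeq start. The 5 genes had log2 ratios to input of 0.66, 1.03, 0.64, 0.31 and 0.42 in the order printed, which spans the highest gene of the core and the lowest gene of the cap. The core of the interferon-stimulated response element was in 3 of the 42 promoters (Psmb3, Psmd4 and Psmd9), or 7.14%, and in 3.46% of all.

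Transcripts of the inducible catalytic subunits were scarce in the IP libraries. Psmb10 (chromosome 8, 105935735 to 105938444), the counterpart of Psmb7, stood at 2.85, 2.33 and 2.44 CPM in saline IP 1, 2 and 4, 3.65, 2.30, 1.26, 2.66 and 2.36 CPM in cocaine IP 1 to 5, 11.03 CPM in the input and 8.80 CPM in the unbound library. All 8 IP libraries lay under both references, at ratios of -1.77 ± 0.11 (SD, n = 3) to the input and -1.55 ± 0.38 (SD, n = 5) to the unbound library, and cocaine IP 3 was the lowest. Psmb9 (chromosome 17, 34181987 to 34187764), the counterpart of Psmb6, stood at 0.412, 0.322 and 0 CPM in saline IP 1, 2 and 4, 0.405, 0, 0.297, 0.242 and 0 CPM in cocaine IP 1 to 5, 3.05 CPM in the input and 1.04 CPM in the unbound library. It had 22 reads summed over the saline IP libraries and 63 in the input, which makes the input level 11.9-fold higher (95% exact interval 7.20 to 20.3). With 28 reads summed over the cocaine IP libraries and 24 in the unbound library, the unbound level was 5.03-fold higher (2.79 to 9.00). Psmb8 (chromosome 17, 34197721 to 34201454), the counterpart of Psmb5, stood at 0.0951, 0.0358 and 0 CPM in saline IP 1, 2 and 4, 0.0624, 0, 0.132, 0.121 and 0.0892 CPM in cocaine IP 1 to 5, 0.774 CPM in the input and 0.863 CPM in the unbound library. It had 4 reads over the saline IP libraries and 16 in the input, an input level 16.6-fold higher (5.35 to 68.1). The cocaine IP libraries held 11 reads of Psmb8 and the unbound library 20, an unbound level 10.7-fold higher (4.88 to 24.7). These intervals cover counting error only.

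Within a library the balance between inducible and constitutive subunits does not depend on scaling. Per kb of exon, Psmb10 made up 0.695% to 1.82% of the sum of Psmb7 and Psmb10 in IP RNA, against 9.75% for input RNA and 8.48% for unbound RNA. Psmb9 made up 0% to 0.128% of its pair with Psmb6 in IP RNA, against 1.74% for input RNA and 0.924% for unbound RNA. Psmb8 made up 0% to 0.209% of its pair with Psmb5 in IP RNA, against 2.30% for input RNA and 3.96% for unbound RNA. The IP libraries did not overlap with the references in any of the 3 pairs. Markers of microglia were lower in IP RNA too: the summed level of 10 markers was 5.37 to 11.0 CPM in saline IP, 4.22 to 8.73 CPM in cocaine IP, 74.7 CPM in the input and 60.9 CPM in the unbound library, with C1qa and Tmem119 at 0 reads in at least 1 library. Of the microglia markers measured, 9 of 9 fell below the input and 5 of 6 below the unbound library by 2-fold or more in all IP libraries. The 8 endothelial and mural markers summed to 1.57 to 4.99 CPM in the IP libraries, 26.3 CPM in the input and 16.6 CPM in the unbound library, with Cldn5, Pecam1, Tek and Ly6c1 at 0 reads in at least 1 library. The part of such cells in the inducible subunits' levels was not tested.

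**Figure D2:**
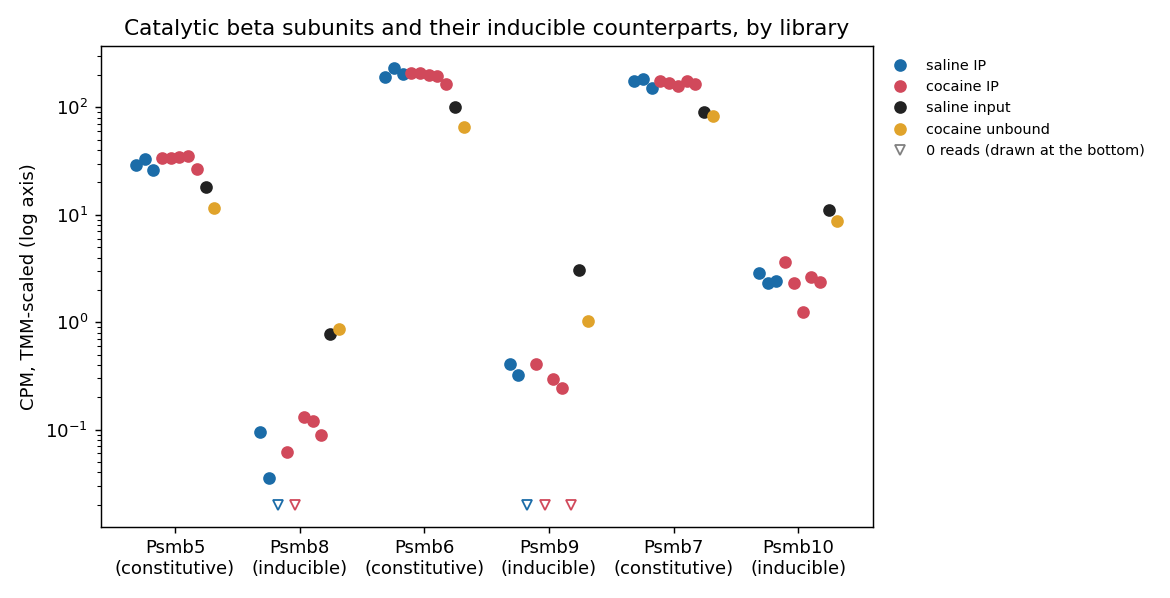
TMM-scaled CPM on a log axis for the catalytic subunits and their inducible counterparts in all 10 libraries, with open triangles for libraries at 0 reads. For Psmb5, Psmb6 and Psmb7 the 8 IP libraries lie above the input (black) and the unbound library (yellow), and for Psmb8, Psmb9 and Psmb10 they lie below.

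The tissue-specific core subunits were at or near the floor. Psma8, an alpha subunit of the testis, had 2 reads over the saline IP libraries and 3 in the input, and it had 0 reads over the cocaine IP libraries and 10 in the unbound library. The exact 95% interval for the fold of Psma8 in unbound RNA over cocaine IP RNA had a lower limit of 13.2 and no upper limit. Psmb11, the catalytic subunit of thymic epithelium, had 5 and 2 reads over the saline and cocaine IP libraries, against 1 read for input RNA and 5 reads for unbound RNA, too few for a comparison with the input at this depth. Against the unbound library, the level of Psmb11 was 14.7-fold higher there than over the cocaine IP libraries (95% exact interval 2.40 to 154), on 7 reads in all.

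In the cap, the ATPases that unfold substrates all lay above both references. Psmc4 (chromosome 7, 28041707 to 28050101) had the highest ratio to input, at 78.1, 80.1 and 71.03 CPM in saline IP 1, 2 and 4, 76.6, 75.5, 74.4, 70.4 and 62.7 CPM in cocaine IP 1 to 5, 44.02 CPM in the input and 36.2 CPM in the unbound library. Psmc5 (chromosome 11, 106256154 to 106263120) had the lowest, at 221, 245 and 228 CPM in saline IP 1, 2 and 4, 235, 236, 235, 239 and 257 CPM in cocaine IP 1 to 5, 172 CPM in the input and 193 CPM in the unbound library. For both genes every IP library exceeded both references, at ratios of 0.78 ± 0.09 (SD, n = 3) for Psmc4 and 0.42 ± 0.08 (SD, n = 3) for Psmc5 against the input, and 0.97 ± 0.12 (SD, n = 5) and 0.32 ± 0.05 (SD, n = 5) against the unbound library. Psmc1, Psmc2, Psmc3 and Psmc6 lay between these, from 0.61 to 0.78 against the input and from 0.63 to 0.81 against the unbound library.

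The non-ATPase subunits of the cap spread more widely. Psmd8 (chromosome 7, 29174188 to 29180701), a lid subunit, had the highest ratio to input, at 121, 134 and 123 CPM in saline IP 1, 2 and 4, 119, 126, 118, 124 and 108 CPM in cocaine IP 1 to 5, 64.6 CPM in the input and 47.1 CPM in the unbound library. Psmd12 (chromosome 11, 107479484 to 107504362), another lid subunit, had the lowest, at 109, 108 and 124 CPM in saline IP 1, 2 and 4, 121, 117, 115, 120.4 and 98.02 CPM in cocaine IP 1 to 5, 91.7 CPM in the input and 75.95 CPM in the unbound library. Their IP libraries lay above both references, at ratios to input of 0.95 ± 0.08 (SD, n = 3) and 0.31 ± 0.11 (SD, n = 3), so the range within the cap exceeded the spread between libraries. Psmd14, the deubiquitinase of the lid, had ratios of 0.62 and 1.09 against the input and the unbound library. Psmd4, a ubiquitin receptor, had 0.70 and 0.59. Psmd1 and Psmd2, the large scaffold subunits of the base, had 0.61 and 0.73 against the input and 0.37 and 0.87 against the unbound library.

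Chaperones that assemble the cap were higher in IP RNA as well. Psmd10 (chromosome X, 140948429 to 140956728), also known as gankyrin, stood at 40.9, 44.97 and 32.5 CPM in saline IP 1, 2 and 4, 43.8, 50.4, 46.97, 40.4 and 45.7 CPM in cocaine IP 1 to 5, 25.4 CPM in the input and 21.02 CPM in the unbound library. Psmd9 (chromosome 5, 123169413 to 123250131), the lowest of the cap chaperones against the input, stood at 27.3, 35.5 and 28.1 CPM in saline IP 1, 2 and 4, 27.2, 30.3, 29.5, 28.98 and 36.9 CPM in cocaine IP 1 to 5, 22.3 CPM in the input and 18.6 CPM in the unbound library. Both lay above both references in every IP library, with ratios of 0.60 and 1.07 for Psmd10, 0.42 and 0.68 for Psmd9, and 0.50 and 0.60 for the third chaperone gene, Psmd5.

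Chaperones that assemble the core lay above both references as well, with a median of the mean ratios of 0.58 and 1.13. Psmg4 (chromosome 13, 34162964 to 34178173), the highest of them, stood at 19.3, 33.6 and 23.4 CPM in saline IP 1, 2 and 4, 18.6, 27.7, 19.7, 19.3 and 19.9 CPM in cocaine IP 1 to 5, 12.96 CPM in the input and 5.39 CPM in the unbound library. Every IP library was higher than its reference, by 0.89 ± 0.39 (SD, n = 3) and 1.77 ± 0.22 (SD, n = 5), with saline IP 2 and cocaine IP 2 the highest of their groups. Psmg1 (chromosome 16, 95979933 to 95990960), the lowest against the input, stood at 21.5, 22.6 and 20.9 CPM in saline IP 1, 2 and 4, 20.5, 21.7, 22.7, 22.1 and 22.2 CPM in cocaine IP 1 to 5, 15.1 CPM in the input and 10.2 CPM in the unbound library. Its IP libraries were tightly grouped above both references, at ratios of 0.49 ± 0.06 (SD, n = 3) to the input and 1.02 ± 0.05 (SD, n = 5) to the unbound library. Psmg2 and Psmg3 had ratios to input of 0.57 and 0.59 and to the unbound library of 1.11 and 1.15.

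The alternative activators, which open the core without the ATPase cap, divided. Psme4 (chromosome 11, 30771726 to 30880361), the large nuclear activator known for histone turnover, stood at 41.04, 26.8 and 35.2 CPM in saline IP 1, 2 and 4, 36.4, 30.9, 30.03, 34.4 and 32.2 CPM in cocaine IP 1 to 5, 60.4 CPM in the input and 61.3 CPM in the unbound library. All 8 IP libraries lay below both references, at ratios of -0.82 ± 0.30 (SD, n = 3) to the input and -0.89 ± 0.11 (SD, n = 5) to the unbound library. Psme2 (chromosome 14, 55587441 to 55591113), an interferon-induced activator subunit, stood at 16.2, 17.7 and 11.5 CPM in saline IP 1, 2 and 4, 12.04, 15.4, 12.5, 13.04 and 15.5 CPM in cocaine IP 1 to 5, 9.87 CPM in the input and 7.03 CPM in the unbound library, and every IP library was above its reference, at ratios of 0.55 ± 0.31 (SD, n = 3) to the input and 0.86 ± 0.16 (SD, n = 5) to the unbound library. Its partner Psme1 had a ratio of 0.17 ± 0.24 (SD, n = 3) to the input and 0.38 ± 0.17 (SD, n = 5) to the unbound library, the former below 0 with scaling by library size alone. Psme3, the nuclear activator of the same family, had a ratio of 0.48 ± 0.17 (SD, n = 3) to the input and 0.07 ± 0.11 (SD, n = 5) to the unbound library, the latter below 0 with DESeq2 size factors or library size alone. Psmf1 (chromosome 2, 151715812 to 151744186), which encodes a protein that binds the core and inhibits it in vitro, stood at 19.05, 17.9 and 20.6 CPM in saline IP 1, 2 and 4, 19.9, 18.4, 16.1, 19.8 and 16.7 CPM in cocaine IP 1 to 5, 27.3 CPM in the input and 19.5 CPM in the unbound library. Its saline IP libraries lay below the input, at -0.49 ± 0.10 (SD, n = 3), and its cocaine IP libraries lay on both sides of the unbound library, at -0.10 ± 0.13 (SD, n = 5). Psme2b, a row with sequence shared with Psme2, had 72 reads summed over 3 saline IP libraries and 134 over 5 cocaine IP libraries. Input RNA had 18 reads and unbound RNA 16, from 1 library each. Scaled for depth, Psme2b stood at 0.840 CPM over the saline IP libraries and 0.871 CPM in the input. The input level was 1.04-fold the IP level (exact interval 0.582 to 1.76). It stood at 0.985 CPM over the cocaine IP libraries and 0.690 CPM in the unbound library. The unbound level was 0.701-fold the IP level (0.390 to 1.18). Both intervals include 1 and cover counting error only.

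Psmc3ip (chromosome 11, 101091823 to 101095436), the gene that is no proteasome subunit, stood at 17.7, 18.1 and 14.1 CPM in saline IP 1, 2 and 4, 15.4, 15.8, 15.7, 16.2 and 12.9 CPM in cocaine IP 1 to 5, 6.05 CPM in the input and 4.88 CPM in the unbound library. IP and reference libraries did not overlap, and the ratios of 1.32 ± 0.19 (SD, n = 3) to the input and 1.46 ± 0.12 (SD, n = 5) to the unbound library were above 1, the former higher than for any core or cap gene. Its gene model overlaps Mlx on the other strand, and 27.1% of its 50-base windows occur there as well. Whether the counting used strand is not given in the sources used here, so reads of the 2 genes may not be separate.

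How well a subunit's reads can be placed differed between genes, since many proteasome genes have processed copies in the mouse genome. In GENCODE, 19 of the 50 genes overlap another gene model, and 16 share over 10% of the 50-base windows of their longest coding transcript with another gene, whereas 23 share none. Psmb5 shared 57.1% (with Psmb5-ps, Gm3375 and Mir686), Psmb3 55.8%, Psma5 55.4% and Psme2 59.3%. Psmb7 shared 28.1% with Nek6 on the other strand, and Psma3 shared 22.02% with 4 predicted genes. Reads placed at several sites took 33.3% to 47.1% of all IP reads, 31.1% of input reads and 25.9% of unbound reads. Over the 8 IP libraries, the 8 constitutive core genes with at most 10% shared windows ranged from 52.4 to 251 CPM per kb of exon, with a median of 151. The 6 with more ranged from 1.84 to 146, with a median of 36.5. For the ATPase and non-ATPase subunits of the cap the medians were 55.2 CPM per kb for 13 genes with at most 10% and 25.1 for 4 with more. Psma3, at 1.84 CPM per kb, stood far below Psmb5 at 35.1, the next lowest gene of the constitutive core, although these subunits take part in the same particle. Medians were thus lower among genes with more shared sequence, although Psmb7 at 146, Psma4 at 102 and Psmc1 at 87.7 CPM per kb stood high. The measure does not separate overlapping genes from copies elsewhere. Psmb7 shares windows only with Nek6, which overlaps it. Psma4 and Psma5 share windows with an overlapping gene (AY074887 and 1700010K24Rik) and with predicted genes. The part of read placement in these levels was not tested.

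**Figure D3:**
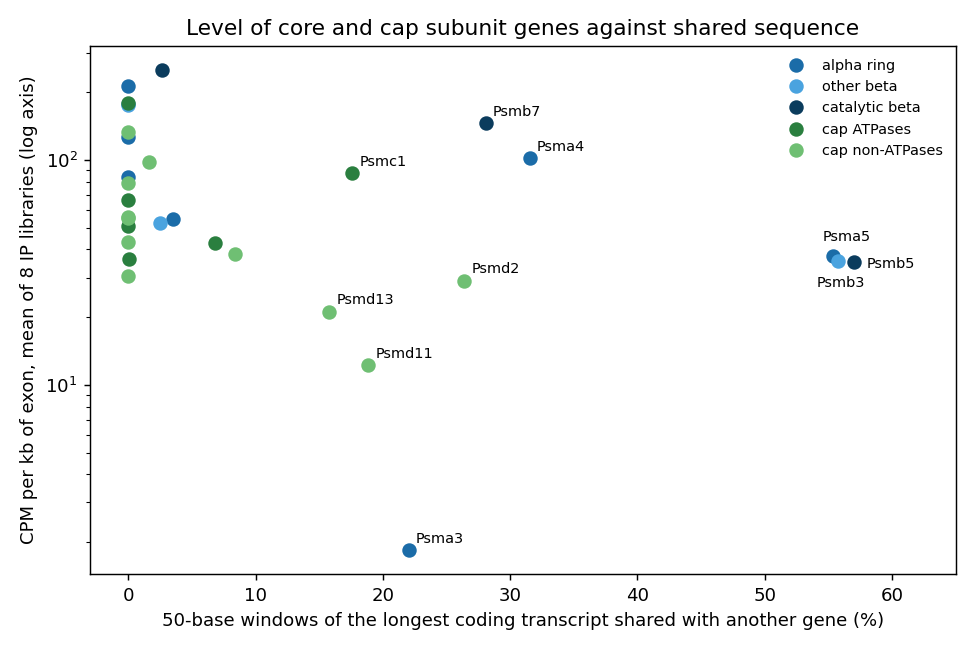
Mean level over the 8 IP libraries, in CPM per kb of exon on a log axis, against the percentage of 50-base windows shared with another gene, for the constitutive core genes and the ATPase and non-ATPase genes of the cap. Genes over 10% are named; Psma3 lies lowest at 1.84, and Psma5, Psmb3 and Psmb5, at 55.4% to 57.1%, lie between 35.1 and 37.5 while Psmb6 at 2.67% reaches 251.

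Leaving out the genes that share over 10% of windows was a setting chosen after seeing the data. Of the 31 proteasome genes that remained, 28 lay above the input in every saline IP library, beside 42.9% of all genes. Above the unbound library in every cocaine IP library lay 27 of 31, beside 43.9%. The shares of all genes were not filtered for shared windows and are those given above. The core median with at most 10% shared windows was 0.85 against the input and 1.36 against the unbound library, and the cap median was 0.67 and 0.70. The distance between core and cap was therefore present in these less ambiguous genes, and smaller against the input.

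Partners of the proteasome outside the Psm symbols were higher in part. Of 20 listed partners in the files (cap subunits with other symbols, maturation and import factors, bound enzymes, shuttles and transcription factors), 13 lay above the input in every saline IP library (42.9% of all genes) and 2 below (33.7%). Against the unbound library 13 lay above in every cocaine IP library (43.9%) and 2 below (30.2%). The medians of the mean log2 ratios were 0.33 and 0.31. Pomp, the maturation factor of the core, exceeded the input by 1.07 ± 0.18 (SD, n = 3) and the unbound library by 1.10 ± 0.14 (SD, n = 5) on the log2 scale. Shfm1, a small cap subunit, had 1.03 ± 0.30 (SD, n = 3) and 1.29 ± 0.17 (SD, n = 5). Nfe2l1, the transcription factor of the proteasome recovery response, had 0.14 and 0.22. Its relative Nfe2l2 had -2.10 ± 0.27 (SD, n = 3) and -2.78 ± 0.54 (SD, n = 5), at 0.377 to 2.03 CPM in the IP libraries, 9.29 CPM in the input and 12.9 CPM in the unbound library, and no other listed partner lay below both references by 2-fold or more throughout. Of 6 genes that supply ubiquitin, 5 were measured, with medians of 0.62 and 0.60. Among these, the activating enzyme gene Uba1 had 0.85 and 0.97 and the polyubiquitin gene Ubb 0.72 and 1.46.

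No proteasome gene passed the test of cocaine against saline. In edgeR's quasi-likelihood test with Benjamini-Hochberg adjustment, 0 of 46 genes tested had an adjusted p under 0.05, beside 0% of 13800 genes, and the smallest adjusted p over all genes was 0.9998. At an unadjusted p under 0.05 the count was 0 of 46, beside 2.14% of all genes. DESeq2 gave 1 such gene (Psmd4), beside 2.63% of all genes, and limma-voom with quality weights 2 (Psmc3 and Psmd10), beside 3.11%. With lane as a covariate edgeR gave 1 (Psmd10), beside 1.72%, and with the replicate number as a block 3 (Psmb5, Psmd4 and Psmd10), beside 6.65% of the 13580 genes of that fit. These are 2.17%, 4.35%, 2.17% and 6.52% of the 46. Log2 fold changes of cocaine over saline ran from -0.26 (Psmg4) to 0.24 (Psme2b), with 20 genes above 0 and 26 below, and a median of -0.03 where all genes had 0.01.

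The limits that the data set on a change depended on the model. With treatment as the only term, the 95% interval lay within 0.5 log2 units of 0 for 43 of 46 proteasome genes and for 46.9% of all genes tested, and within 1 log2 unit for 46 of 46. The median standard error was 0.110 for the proteasome genes and 0.179 for all genes. In that fit all 20 cap genes and all 14 constitutive core genes had intervals within 0.5, and the 3 with wider ones were Psmb10, Psmg4 and Psme2b. With lane as a covariate, 17 of 46 proteasome genes and 5.62% of all genes had an interval within 0.5, and the fold change of the cap gene Psmd10 was 0.56. With the replicate number as a block, 44 of 46 proteasome genes and 64.4% of the 13580 genes of that fit had an interval within 0.5. Over the 8 IP libraries the coefficient of variation of proteasome genes had a median of 8.62%, from 3.59% for Psmg1 to 26.9% for Psmb10. Where the mean reached 5 CPM, the median was 8.48% for 44 proteasome genes and 13.7% for 9679 genes.

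**Figure D4:**
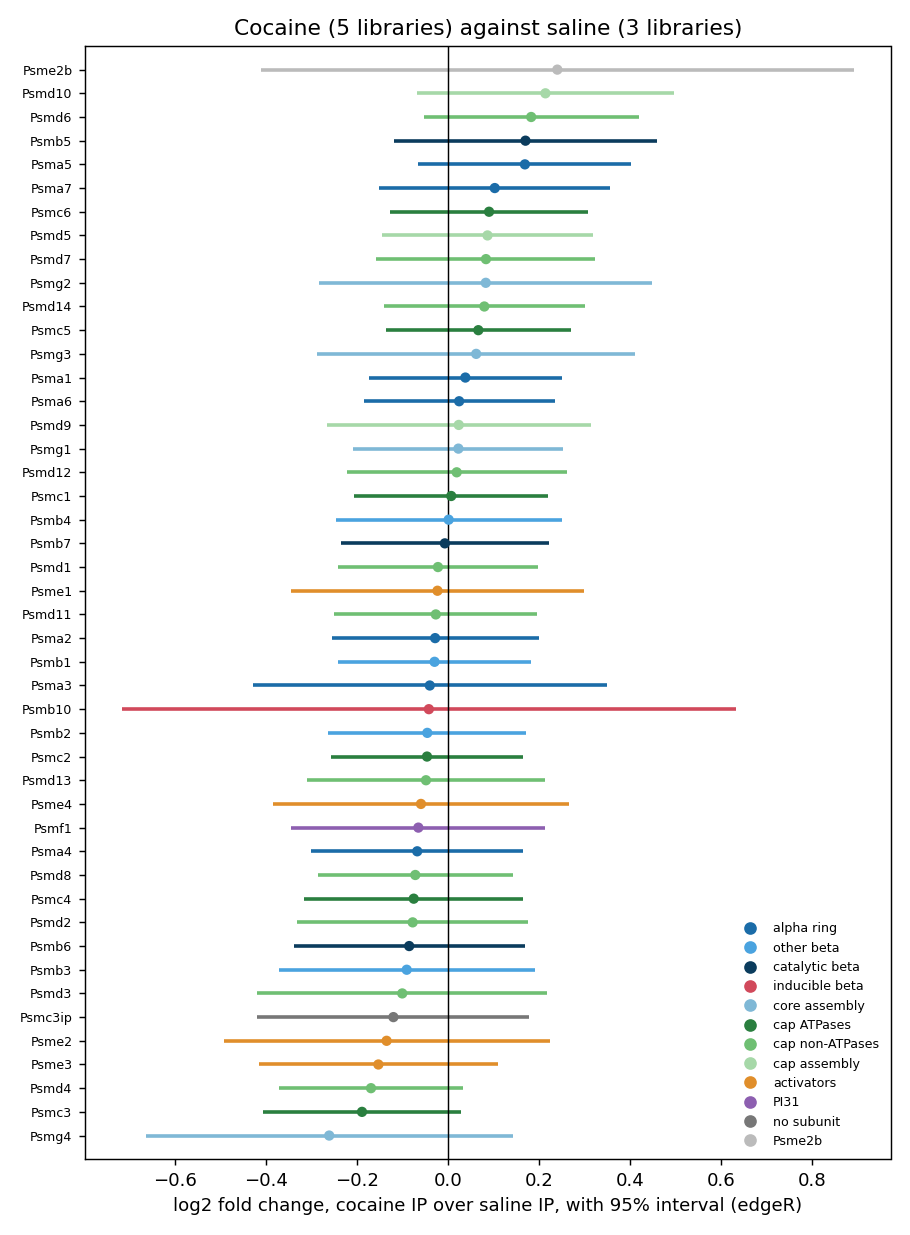
Log2 fold change of cocaine IP (5 libraries) over saline IP (3 libraries) with its 95% interval from edgeR for the 46 proteasome genes tested, ordered by size and coloured by role. All intervals include 0, and those of Psme2b, Psmb10 and Psmg4 are wider than the rest.

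The genes with the smallest p in each direction show how small the differences were. Psmc3, a cap ATPase, had 90.2, 94.8 and 98.9 CPM in saline IP 1, 2 and 4 and 88.97, 81.9, 79.3, 83.9 and 77.5 CPM in cocaine IP 1 to 5. The groups did not overlap, all cocaine libraries being lower, at a log2 fold change of -0.19 (SE 0.0998; 95% interval -0.41 to 0.03) with an unadjusted edgeR p of 0.0832. Psmd4, the ubiquitin receptor, had 104, 115 and 113 CPM in saline IP 1, 2 and 4 and 95.4, 95.95, 96.7, 97.8 and 102 CPM in cocaine IP 1 to 5. Here too the cocaine libraries were all lower, by -0.17 (SE 0.092; 95% interval -0.37 to 0.03) with an unadjusted edgeR p of 0.0914. These were the 2 of 46 genes whose groups did not overlap, or 4.35%, beside 2.31% of all genes (0.913% higher and 1.4% lower after cocaine). Within lane 6, the only lane with both treatments, cocaine IP 1 and 2 lay below saline IP 4 for both genes.

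Psmd6, a lid subunit, had 100.3, 99.1 and 104 CPM in saline IP 1, 2 and 4 and 99.9, 107, 111, 127 and 126 CPM in cocaine IP 1 to 5. The groups overlapped, since cocaine IP 1 lay among the saline libraries, and the log2 fold change was 0.18 (SE 0.108; 95% interval -0.05 to 0.42) with an unadjusted edgeR p of 0.118. With lane as a covariate the fold change of Psmd6 was 0.01. Psmd10, the cap chaperone, differed by 0.21 (SE 0.129; 95% interval -0.07 to 0.50) with an unadjusted edgeR p of 0.124, and saline IP 4 was the lowest of the 8 libraries. With lane as a covariate it came to 0.56, with an unadjusted edgeR p of 0.020 and an adjusted p above 0.05, and without saline IP 4 to 0.08. Psma5, an alpha subunit, had 41.1, 45.4 and 43.5 CPM in saline IP 1, 2 and 4 and 50.1, 44.5, 45.02, 49.2 and 52.9 CPM in cocaine IP 1 to 5. Its groups overlapped through cocaine IP 2 and 3, at 0.17 (SE 0.107; 95% interval -0.07 to 0.40) with an unadjusted edgeR p of 0.141. Psmg4, the core chaperone described above, differed by -0.26 (SE 0.184; 95% interval -0.66 to 0.14) with an unadjusted edgeR p of 0.183. The value for Psmg4 was -0.02 without saline IP 2 and 0.00 with lane as a covariate.

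Lane was compared within the cocaine IP group, where cocaine IP 3 to 5 ran on lane 4 and cocaine IP 1 and 2 on lane 6. In edgeR's quasi-likelihood test, 0 of 46 proteasome genes passed an adjusted p of 0.05, beside 0% of 13746 genes, and 0 had an unadjusted p under 0.05, beside 5.41%. The median log2 difference of lane 4 over lane 6 was -0.03 for the proteasome genes. Without cocaine IP 2, which leaves lane 6 with 1 library that is assumed to vary like the others, 407 of all genes passed and 0 proteasome genes did. Lane and treatment overlap in part, so their effects can be told apart only through lane 6.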

How the data were processed

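RNA-seq was made from whole striatum of Drd2-TRAP CP101 mice in 10 libraries (3 saline IP, 5 cocaine IP, 1 saline input, 1 cocaine unbound). The authors deposited raw read counts per gene symbol, 1 set per library, made with STAR 2.0.0e and HTSeq on build mm10, per the submitters' processing notes. Neither the annotation counted against nor the use of strand is given in the sources used here. Entries that name no gene (reads in no feature, ambiguous, placed at several sites) were left out of library sizes. Groups and replicate numbers follow the sample labels, and lanes the sample descriptions.

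Proteasome genes were found by symbol, and the members and gene lists were chosen with earlier results of these data known. Named in full are the catalytic and inducible subunits, Psmc3ip, the highest and lowest gene against input in each role, and the 3 smallest p-values per direction after cocaine. IP libraries were set against the input or unbound library of their treatment as log2 ratios with 1 CPM added, for genes with a mean of 1 CPM or more, and 2-fold in every IP library was the call. With no replicate of either reference, these ratios have no p. The 5 cocaine and 3 saline IP libraries were compared with edgeR 4.0.16 (R 4.3.3; quasi-likelihood test, two-sided, TMM, filterByExpr, treatment as the only term, Benjamini-Hochberg over 13800 genes), and lane 4 against lane 6 likewise. Intervals of scarce genes are exact conditional intervals at 95% on read counts and cover counting error only. Saline and cocaine libraries with the same number deviated together from their group means (correlations 0.706, 0.620 and 0.314 for numbers 1, 2 and 4, over 9618 genes of 5 CPM or more). The numbers were taken to pair them in the replicate block, while the main test uses no pairs. No label states the meaning of a number, and libraries with different numbers were not correlated for comparison. Libraries of a group differed beyond read-sampling noise (chi-square over degrees of freedom of 21.5 or more), so none was a second copy of another, and each was counted once. Positions, overlaps and shared 50-base windows come from GENCODE on GRCm38, the assembly of mm10, and promoter sequences from RefSeq on GRCm38.p6. The steps were tested on simulated counts. Alternatives were other scalings, added values, filters, DESeq2 1.42.0, limma-voom (limma 3.58.1), lane as a covariate, the replicate block and leaving out each library.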

Additional observations from a re-analysis of the deposited data

Results flagged for a closer look

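In 7 of 46 proteasome genes tested, 1 of the 5 cocaine IP libraries stood apart, its gap to the nearest other library taking more than 0.71 of the group's range (Dixon's 95% critical value). Chance marks about 1 in 20 groups this way, and 6.62% of all 13800 genes tested were marked, beside 15.2% of the 46. For Psmb5, a catalytic subunit, cocaine IP 5 had 26.7 CPM where the others had 33.5 to 35.03 CPM. For Psmd12, a lid subunit of the cap, it had 98.0 CPM where the others had 115 to 121 CPM. The cap ATPase Psmc5 was higher in it, at 257 CPM against 235 to 239 CPM. Psmc3ip, which is no proteasome subunit, was lower in it, at 12.9 CPM against 15.4 to 16.2 CPM. Among the core chaperones, Psmg2 had 18.6 CPM in cocaine IP 1 and 24.5 to 26.5 CPM in the others, and Psmg4 had 27.7 CPM in cocaine IP 2 and 18.6 to 19.9 CPM in the others. The alpha subunit Psma1 had 98.3 CPM in cocaine IP 3 and 105 to 108 CPM in the others.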

How the results depend on the processing

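Among the alternative values of the counts and medians that answer a comparison, 165 stayed close to the value reported and 23 moved. With library size alone, the median log2 ratios were 0.67 for the core and 0.43 for the cap against the input, and 1.13 and 0.53 against the unbound library, with 0 and 8 genes at 2-fold. With DESeq2 size factors the cap medians were 0.59 and 0.61. With 5 CPM added, 0 genes passed 2-fold against the input and the core median against the unbound library was 1.19, and with no filter that median was 1.002. Without genes that share over 10% of windows (chosen after seeing the data), 0 passed 2-fold against the input and 27 lay above the unbound library throughout. Leaving out 1 library gave 1 to 3 genes at 2-fold against the input, 3 of them without saline IP 1.

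For cocaine against saline, 0 proteasome genes and 0 of all genes passed the adjusted threshold under every alternative run. The number at an unadjusted p under 0.05 was 1 with DESeq2, 2 with limma-voom, 1 with lane as a covariate and 0 to 1 when 1 library was left out (1 without saline IP 1 and 1 without cocaine IP 1). With lane as a covariate the median log2 fold change was 0.039 and that of Psmg4 turned to 0.0025. With the replicate number as a block, on the 6 libraries taken as pairs, 3 genes had an unadjusted edgeR p under 0.05 (0 without the block on the same libraries). The block changed no call at the adjusted threshold. For lane 4 against lane 6, leaving out 1 library gave 0 to 1 genes at an unadjusted p under 0.05, and 0 to 407 of all genes past the adjusted threshold, 407 without cocaine IP 2. The causes were not tested. Depth limits the genes with few reads (Psma8, Psmb8, Psmb9 and Psmb11), and the lone input and unbound libraries leave the error of every ratio's denominator unmeasured.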

Other observations

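The unbound library also held less core RNA than the input, although the 2 libraries come from different treatments and each stands alone. The log2 ratio of unbound to input had a median of -0.46 over 15 core genes, 14 of them below 0, with a range from -0.65 (Psmb4) to 0.12 (Psma5). Over 20 cap genes the median was -0.09, with 15 below 0. Over all 13969 genes the median was -0.06, with 56.9% below 0. The wider distance between core and cap against unbound RNA than against input therefore came with a difference between the 2 references.

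Among the saline IP libraries, saline IP 2 was the highest for 25 of 46 proteasome genes (54.3%, beside 39.0% of all genes) and for 10 of the 14 constitutive core genes. Among the cocaine IP libraries, cocaine IP 4 was the highest for 8 of those 14 core genes, beside 18.1% of all genes, and cocaine IP 3 for 0, beside 16.4%. The median log2 deviation of the proteasome genes from their mean over the 8 IP libraries ranged from -0.04 in cocaine IP 3 to 0.06 in saline IP 2.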
